A study of Mus musculus with 15 samples.

Results

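The genes described here encode the nuclear part of the mitochondrial respiratory chain and of the ATP synthase, measured as RNA in mouse liver. They were taken from the deposited table by symbol alone (Nduf followed by a, b, c, s or v, the 4 Sdh genes, Uqcr, Cox4 to Cox8 and Atp5), and no measured value was used. The rule found 93 of 16809 genes, of which 48 belong to complex I by symbol, 4 to complex II, 8 to complex III, 16 to complex IV and 17 to complex V. Of the 48, 8 are Ndufaf genes, which encode assembly factors of complex I and not subunits, and Ndufa4 is counted with complex I by its symbol although its protein is now placed in complex IV. Cox7b2 and Cox8c had no row in the table. Genes of mitochondrial DNA were looked for only by symbols beginning with mt-, of which there were none, and were not analysed here.

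Libraries were made from livers of wild-type mice, 15 in all and 3 in each of 5 groups, after 6 weeks of feeding. Control mice ate standard feed, and model mice ate such feed (78.8%) mixed with lard (10%), powdered egg yolk (10%), cholesterol (1%) and the bile salt sodium cholate (0.2%). The other 3 groups ate a diet labelled high-fat, whose composition the labels do not give, and were gavaged daily with a flavonol, the dose per kg of body weight being 200 mg for quercetin, 75 mg for myricetin and 100 mg for kaempferol. These compounds are related plant flavonols that differ in the hydroxyl groups of 1 ring, and their doses differ, so their values stand side by side here without a comparison between them. The series title concerns the lipid-regulating action of Rosa roxburghii flavonoids in hyperlipidemic mice. The labels give no sex, age or time of collection and do not say that libraries came from separate animals, so p-values measure the spread between libraries, which may be technical.

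The respiratory chain moves electrons from NADH (complex I) and succinate (complex II) through ubiquinone to complex III, cytochrome c and complex IV, where oxygen is reduced. Complexes I, III and IV pump protons across the inner mitochondrial membrane, and complex V, the ATP synthase, uses their return to make ATP. All subunits of complex II and most subunits of the other complexes come from nuclear genes, while mitochondrial DNA supplies core subunits of complexes I, III, IV and V. The nuclear genes are widely described as sharing promoter sites for nuclear respiratory factor 1 (NRF1), GABP and YY1, and hepatocytes are rich in mitochondria.

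Promoter sequences were looked up to see which of these sites the members share. The RefSeq promoter table (GRCm38.p6), with windows from 250 bases before to 50 bases after a start, matched 76 of the 93 members by symbol. These had 81 windows, and in 71 the start lay within 50 bases of the 5′ end of a GENCODE transcript. The NRF1 core GCGCANGCG occurred on either strand in 28.4% of the member windows, in 12.5% of the windows of all tested genes and in 6.25% of all windows. The GABP and ETS core CCGGAAG occurred in 23.5% of member windows, 16.6% of those of tested genes and 8.86% of all. The YY1 core AANATGGCG occurred in 13.6%, 4.73% and 2.38%. At least 1 of the 3 was present in 43 of 76 members, among them 12 of 15 of complex V, 22 of 41 of complex I, 3 of 5 of complex III, 3 of 3 of complex II and 3 of 12 of complex IV. The 43 members with a match and the 30 tested members without one had near-equal median log2 fold changes, -0.11 and -0.12 between model and control and 0.17 and 0.16 between quercetin and model. A match is a string of letters and no proof of a bound site. In each complex the member of smallest p over the 5 groups was taken among those with a usable window. Usable windows lay on an assembled chromosome other than 18 and left at least 150 bases before the first annotated base of the gene. The 5 stretches printed 5′ to 3′ here end before that base. They are Ndufaf3 (chr9:108567437-108567686, minus strand), Sdha (chr13:74350281-74350490, minus), Uqcr11 (chr10:80406831-80407071, minus), Cox7a1 (chr7:30183921-30184143, plus) and Atp5g1 (chr11:96075695-96075881, minus). Capitals mark matches to the 3 cores, namely 2 NRF1 cores before Sdha and 1 ETS core before Uqcr11. The printed bases of Ndufaf3, Cox7a1 and Atp5g1 hold none of the 3.
Ndufaf3: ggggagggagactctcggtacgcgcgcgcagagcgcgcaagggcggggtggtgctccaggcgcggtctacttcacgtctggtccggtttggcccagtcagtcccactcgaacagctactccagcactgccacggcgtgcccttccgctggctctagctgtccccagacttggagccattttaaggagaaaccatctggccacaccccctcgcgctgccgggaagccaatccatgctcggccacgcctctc
Sdha: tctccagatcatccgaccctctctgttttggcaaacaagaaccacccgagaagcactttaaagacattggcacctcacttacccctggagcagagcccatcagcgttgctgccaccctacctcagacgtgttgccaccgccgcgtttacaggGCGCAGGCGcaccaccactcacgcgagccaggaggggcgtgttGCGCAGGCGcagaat
Uqcr11: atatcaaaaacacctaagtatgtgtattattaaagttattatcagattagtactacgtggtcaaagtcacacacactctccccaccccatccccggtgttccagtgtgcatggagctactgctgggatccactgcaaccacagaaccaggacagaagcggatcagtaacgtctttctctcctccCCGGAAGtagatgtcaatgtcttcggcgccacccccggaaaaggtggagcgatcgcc
Cox7a1: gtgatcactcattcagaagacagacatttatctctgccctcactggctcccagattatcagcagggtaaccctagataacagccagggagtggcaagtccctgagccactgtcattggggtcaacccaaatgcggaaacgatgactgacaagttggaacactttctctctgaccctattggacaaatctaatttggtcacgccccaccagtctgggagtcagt
Atp5g1: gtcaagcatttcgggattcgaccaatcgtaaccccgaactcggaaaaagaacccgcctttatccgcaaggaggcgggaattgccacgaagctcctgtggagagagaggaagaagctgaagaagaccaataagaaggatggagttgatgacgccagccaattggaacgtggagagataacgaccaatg

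Counts totalled 15853767 to 17576502 per library. Of the 93 members 88 had enough counts to be tested, among 12658 genes in all. The exceptions were Ndufb4b, a gene copy, and Cox4i2, Cox6a2, Cox6b2 and Cox8b. All 10 hepatocyte markers were present, with summed levels of 111072 to 125277 CPM (counts relative to the library total, which is adjusted by TMM factors) in the control and 84378 to 104858 CPM in the model. RNA of whole liver was measured, so fewer cells of a type and less RNA per cell cannot be told apart.

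Liver held these transcripts at high levels and at unequal ones. Levels are compared between genes as TPM, the deposited per-length unit, and the members summed to 2.79% to 3.76% of all TPM in a library. Mean TPM over the 15 libraries was 100 or more for 72 of 93 members. The median member stood at 170 TPM in complex I, 208 in complex II, 364 in complex III, 340 in complex IV and 566 in complex V. The most abundant member was Ndufa4 at 1326 TPM (1074 to 1773 across libraries), followed by Cox7c, a small complex IV subunit, at 1316, and Cox4i1, the large nuclear subunit of complex IV, at 1191.

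Within complex I the 7 core subunits, which include those that carry the flavin and the iron-sulfur clusters, had a median of 157.6 TPM, and Ndufs1 was the lowest at 45.4 TPM. The 33 accessory subunits ranged from 0.773 TPM for Ndufb4b to 1326 TPM. The 8 assembly factors were low throughout, from 3.96 TPM for Ndufaf5 to 50.01 TPM for Ndufaf8. Complex II was the most even, from 188.2 TPM for the membrane anchor Sdhd to 244.3 TPM for the iron-sulfur subunit Sdhb, with Sdhc at 205.7 and the flavoprotein Sdha at 210.3. In complex III the core proteins Uqcrc1 and Uqcrc2 (197.7 and 148.8 TPM) lay below the small subunit Uqcr11 (889 TPM). In complex V the values ran from 247.1 TPM for Atp5pb, of the peripheral stalk, to 994 TPM for Atp5g3, 1 of 3 genes for the same c-ring protein.

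The isoform families had 1 dominant form each in these livers. Cox6a1 stood at 1013 TPM and its heart and muscle form Cox6a2 at 0.0867 TPM. Cox8a stood at 752 TPM and its muscle form Cox8b at 0.0833. Cox4i1 exceeded Cox4i2, a form best known from lung, which stood at 0.125 TPM. Cox6b1 stood at 827 TPM and its testis form Cox6b2 at 0.766. Cox7a2, the liver form, stood at 255 TPM, against 9.93 for the muscle form Cox7a1 and 106.7 for Cox7a2l, which joins complexes III and IV in supercomplexes. Of the 5 skeletal and heart muscle markers in the table, the summed level was 0.332 to 1.22 CPM in every library. Ndufa4l2, a hypoxia-responsive relative of Ndufa4, stood at 1.74 TPM. Cox4i2, Cox6a2 and Cox8b had 12, 7 and 2 counts over all 15 libraries, so no fold is given for them.

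**Figure D1:**
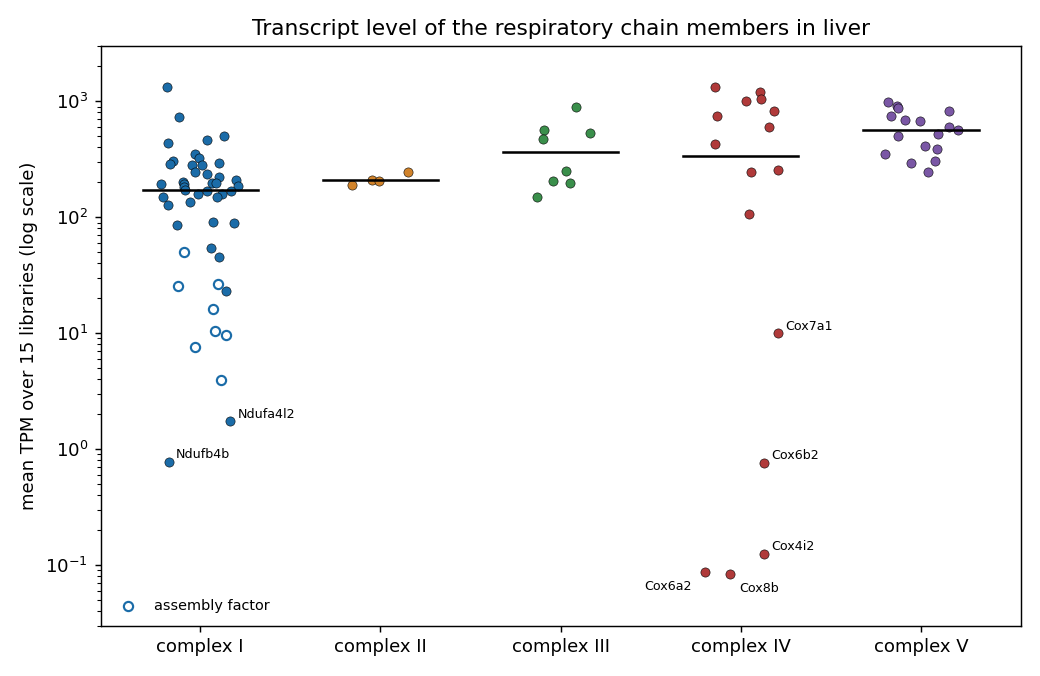
Mean TPM over 15 libraries (log scale) of the 93 members by complex. Each point is 1 gene, open circles are the 8 complex I assembly factors and bars are medians, and the forms known from other tissues (Cox6a2, Cox8b, Cox4i2, Cox6b2) lie below 1 TPM.

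How far the members differed between groups depended on the scale of the levels. With TMM-scaled counts, the scale of the main test, no member passed in any comparison of 2 groups, whereas on the deposited TPM most members were higher with quercetin than in the model. With edgeR's quasi-likelihood test and Benjamini-Hochberg adjustment over all genes, no member passed an adjusted p of 0.05 between model and control (4.46% of all genes passed), between quercetin and model (7.82%), between myricetin and model (0.395%) or between kaempferol and model (0.0395%). At an unadjusted p under 0.05 edgeR gave 7, 19, 0 and 1 members (7.95%, 21.6%, 0% and 1.14% of 88), against 21.7%, 23.1%, 11.9% and 11.7% of all genes. The authors' deposited table has 0 members with a q value under 0.05 in each of the same comparisons, beside 6.28%, 5.95%, 1.73% and 1.73% of its genes. The standard error of a member's log2 fold change had a median of 0.14. The 95% intervals lay within a 2-fold change for 85, 87, 86 and 86 of the 88 members in these comparisons, and within a 1.5-fold change for 78, 67, 84 and 85. The members whose interval reached past 2-fold were Cox7a1 in all 4 comparisons, Ndufa4l2 in all but the quercetin one, and Ndufaf5 between model and control.

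On the deposited TPM, 56 of the 88 members were called higher with quercetin than in the model and 0 lower (limma on log2 of TPM plus 1, adjusted over the same genes), where 13.2% of all genes were called. This test was added after the data were seen. The median log2 difference was 0.33 over members and 0.14 over all genes on that scale. The calls covered 11 of 12 complex IV members, 22 of 32 complex I accessory subunits, 4 of 5 small complex III subunits and 4 of 8 complex I assembly factors, but neither complex II catalytic subunit and none of the 3 complex III core and Rieske proteins. Ndufa4 stood at 1109, 1136 and 1074 TPM in the model and 1626, 1573 and 1773 TPM with quercetin (0.58 ± 0.10, limma adjusted p = 0.00121). Cox4i1 stood at 1040, 1007 and 1063 TPM and 1516, 1482 and 1254 TPM (0.45 ± 0.09, limma adjusted p = 0.0035). For both genes every quercetin library stood above every model library, while Sdha overlapped, at 222, 247 and 189 TPM in the model and 217, 210 and 207 TPM with quercetin (-0.05 ± 0.11, limma adjusted p = 0.846). In every quercetin library 74 members stood above every model library on the TPM scale, beside 24.2% of all genes. Between model and control 46 members stood lower in every model library, beside 15.4% of all genes. In that comparison limma called 0 members, as it did with myricetin and kaempferol. At an unadjusted p under 0.05 limma gave 32 members between model and control, beside 16.3% of all genes. It gave 5 members with myricetin and 1 with kaempferol, beside 10.997% and 9.57% of all genes. Over the 5 groups limma called 43 members (14.3% of genes) and over the 4 high-fat groups 37 (8.15%). Which scale is nearer to RNA per cell was not tested.

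With TMM-scaled counts 1 member passed the test for any difference over the 5 groups, where 16.1% of all genes passed (33.4% at an unadjusted p under 0.05, against 5 members). It was Ndufaf3, which helps to assemble the membrane arm of complex I (chromosome 9, 108565587 to 108567436, GRCm38.p6). Its levels were 7.80, 7.02 and 8.01 CPM in control replicates 1, 2 and 3 and 8.76, 8.37 and 8.89 CPM in model replicates 1, 2 and 5. They were 10.7, 11.3 and 13.5 CPM in quercetin replicates 2, 5 and 8, 9.84, 8.80 and 11.95 CPM in myricetin replicates 5, 7 and 8, and 7.08, 8.98 and 7.44 CPM in kaempferol replicates 3, 5 and 8. Every quercetin library stood above all control, model and kaempferol libraries, while myricetin overlapped the model. The edgeR adjusted p was 0.0199 over the 5 groups and 0.0635 over the 4 high-fat groups, where no member passed (4.87% of genes passed, and 21.4% had an unadjusted p under 0.05, against 5 members). Against the model, quercetin differed by 0.45 ± 0.14 on the log2 scale (SE, edgeR adjusted p = 0.0689), myricetin by 0.23 ± 0.15 (adjusted p = 0.565) and kaempferol by -0.15 ± 0.15 (adjusted p = 0.78). The call over 5 groups was lost without quercetin replicate 8 (edgeR adjusted p = 0.0586) and without control replicate 2 (0.0531), and in the fit with the replicate number as a block (0.214). In GENCODE its 3′ end overlaps that of Impdh2 on the other strand, and strand-specific counting is not stated, so reads of that stretch cannot be told apart.

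**Figure D2:**
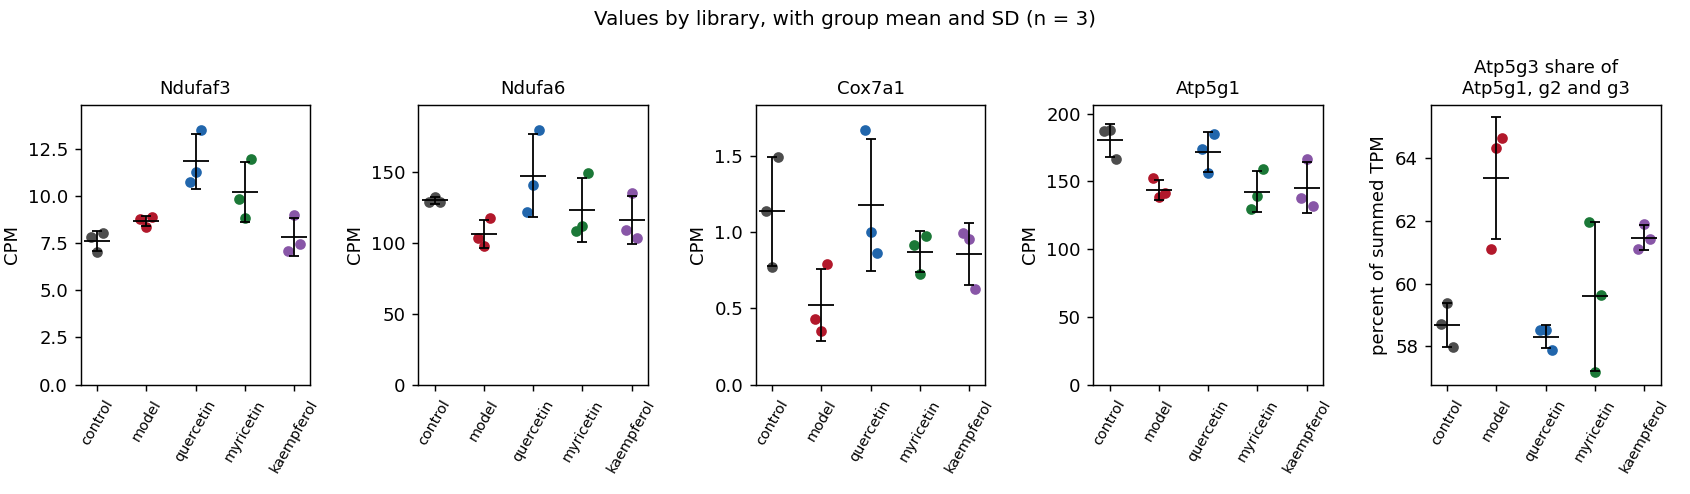
CPM of Ndufaf3, Ndufa6, Cox7a1 and Atp5g1, and the Atp5g3 percent of the summed TPM of the 3 c-ring genes, in each library (points) with group mean and SD (n = 3). The Atp5g3 axis does not start at 0. All 3 quercetin libraries of Ndufaf3 lie above the control, model and kaempferol libraries on the TMM scale, and the Atp5g3 share is higher in the model libraries than in the control or quercetin libraries.

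The comparison of model with control asks how the lipid-rich diet altered these genes. The point estimates leaned lower in the model, by a median log2 fold change of -0.11 over the 88 tested members, with 69 below 0, beside a median of -0.01 over all genes, of which 51.2% were below 0. All 12 complex IV members were below 0 (median -0.16), as were 28 of 32 complex I accessory subunits (-0.11) and all 5 small complex III subunits (-0.17). In complex V the median was -0.28 for the 3 c-ring genes, -0.19 for the 5 other membrane subunits and -0.14 for the 4 peripheral stalk subunits. The medians of the parts that follow lay nearer 0 or above it, and no difference between parts was tested. The median was -0.08 for the 5 subunits of the ATP synthase head, with 4 of 5 below 0. It was 0.04 for the 7 complex I core subunits, of which 3 were below 0, 0.08 for the complex II catalytic subunits Sdha and Sdhb, and 0.08 for the 3 complex III core and Rieske proteins. None of these members passed by edgeR on TMM-scaled counts. On that scale the lean rested in part on single libraries, since the median ran from -0.16 without model replicate 5 to -0.06 without control replicate 2. On the deposited TPM the members' median was -0.16, beside -0.04 over all genes. It ran from -0.17 without control replicate 3 to -0.14 without control replicate 2.

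The smallest p-value of this comparison belonged to the assembly factor Ndufaf5, which modifies a core subunit of complex I. It stood at 2.35, 2.00 and 3.23 CPM in the control and 4.16, 4.07 and 3.69 CPM in the model. The groups did not overlap, and the difference was 0.65 ± 0.21 (edgeR adjusted p = 0.0794). The core subunit Ndufs1 stood at 79.4 to 90.3 CPM in the control and 92.8 to 110.4 CPM in the model, a difference of 0.29 ± 0.10 (edgeR adjusted p = 0.113). Of all 88 members, 7 stood higher and 9 lower in every model library than in every control library, beside 15.1% and 14.9% of all genes.

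Among subunits of the ATP synthase, Atp5g1 had the smallest p-value. It stood at 186.9, 187.8 and 166.3 CPM in the control and 152.2, 138.2 and 141.1 CPM in the model, so the groups did not overlap. The difference was -0.33 ± 0.11 (edgeR adjusted p = 0.1, 95% interval -0.58 to -0.08). Its sister gene Atp5g2 stood at 103.3 to 115.3 CPM in the control and 81.2 to 93.4 CPM in the model (-0.28 ± 0.13, edgeR adjusted p = 0.221), while Atp5g3 overlapped between the groups (-0.02 ± 0.12, adjusted p = 0.935). These 3 genes encode 1 mature c-ring protein behind different import sequences, so the share of each in their summed TPM is free of the scaling of a library. The Atp5g3 share was 58.7%, 59.4% and 58.0% in the control, 61.1%, 64.3% and 64.6% in the model and 58.5%, 58.5% and 57.9% with quercetin. It was 62.0%, 57.2% and 59.6% with myricetin and 61.1%, 61.9% and 61.4% with kaempferol. All model libraries stood above all control and quercetin libraries, with mean differences of 4.68 percentage points (model minus control) and -5.05 points (quercetin minus model). The first ran from 4.04 to 5.79 points with any 1 library of either group left out, and the second from -6.17 to -4.42. This share was computed after the values were seen and was not tested. The copies share near-identical coding sequence, and how shared reads were counted is not given in the sources used here, so the split between them is uncertain.

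In complex IV the liver form Cox7a2 stood at 125.4, 113.7 and 106.8 CPM in the control and 99.8, 83.6 and 88.2 CPM in the model (-0.35 ± 0.16, edgeR adjusted p = 0.216). The muscle form Cox7a1 was low in every group, at 1.14, 0.773 and 1.49 CPM in the control and 0.429, 0.349 and 0.790 CPM in the model. These groups overlapped, and the difference was -1.13 ± 0.41 (edgeR adjusted p = 0.118). In complex II Sdha stood at 406.6 to 497.9 CPM in the control and 454.2 to 519.1 CPM in the model (0.11 ± 0.12, edgeR adjusted p = 0.657), and the other 3 Sdh genes differed by -0.10 to 0.06. In complex III the smallest p-value was that of Uqcr10, a small subunit, at 82.7 to 104.5 CPM and 75.1 to 89.8 CPM (-0.22 ± 0.16, edgeR adjusted p = 0.44).

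Markers of other cell types differed in the same comparison. Of 9 endothelial markers 5 passed as higher in the model (summed level 116.8 to 172.3 CPM in the control and 193.1 to 250.7 CPM in the model), and of 9 macrophage markers 4 did (105.0 to 177.3 and 233.2 to 329.3 CPM), with no marker of either list at 0 in all libraries. Of the 10 hepatocyte markers 1 passed, as lower, as did 1 of 8 lymphocyte markers and 1 adipocyte marker, as higher, and 0 of 5 stellate and 0 of 4 cholangiocyte markers. The part of these markers in the members' values was not tested.

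With quercetin the point estimates on TMM-scaled counts leaned the other way. Their median was 0.16 over the 88 members, with 74 above 0, beside 0.01 over all genes. The comparison shares the model libraries with the one against the control, so the opposite signs are no independent result. Of the 12 complex IV members 11 were above 0 (median 0.25), as were 30 of 32 complex I accessory subunits (0.18) and all 9 members of the ATP synthase peripheral stalk and other membrane subunits (0.16 and 0.17). Sdha (-0.23 ± 0.12, edgeR adjusted p = 0.282), Uqcrc1 (-0.13 ± 0.11, 0.516) and Atp5a1, the large catalytic-head subunit of the ATP synthase (-0.25 ± 0.12, 0.204), were below 0. In every quercetin library 21 members stood above every model library and 1, Atp5a1, stood below, beside 15.4% and 14.2% of all genes.

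Ndufa6, an accessory subunit of the complex I matrix arm, came closest to the threshold. It stood at 103.8, 98.2 and 117.4 CPM in the model and 121.8, 141.2 and 179.6 CPM with quercetin, against 128.6, 132.8 and 128.8 CPM in the control. The groups did not overlap, and the difference was 0.47 ± 0.15 (edgeR adjusted p = 0.0649, 95% interval 0.14 to 0.80). DESeq2 called it, as its only member (DESeq2 adjusted p = 0.0433, 10.6% of genes called). The assembly factor Ndufaf6 stood at 10.3, 8.84 and 10.1 CPM in the model and 12.1, 13.5 and 14.8 CPM with quercetin (0.46 ± 0.15, edgeR adjusted p = 0.0752). Ndufa2, an accessory subunit of the matrix arm, stood at 54.9, 52.5 and 62.4 CPM and 70.3, 66.9 and 82.0 CPM (0.37 ± 0.13, edgeR adjusted p = 0.0846). Quercetin replicate 8 had the highest value of the group for all 3. The assembly factor Ndufaf2 stood at 7.29, 8.14 and 8.23 CPM in the model and 9.89, 10.1 and 10.9 CPM with quercetin (0.38 ± 0.15, edgeR adjusted p = 0.122). The accessory subunit Ndufb7 overlapped between the groups, at 56.2 to 72.4 and 69.6 to 82.3 CPM (0.25 ± 0.12, edgeR adjusted p = 0.216).

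In the other complexes, Cox7a1 stood at 1.67, 0.999 and 0.862 CPM with quercetin, all above the 3 model libraries (1.18 ± 0.40, edgeR adjusted p = 0.0866). Cox7c stood at 166.1, 168.6 and 211.8 CPM in the model and 223.9, 217.9 and 287.3 CPM with quercetin (0.42 ± 0.16, edgeR adjusted p = 0.128). Atp5g1 stood at 155.9 to 184.9 CPM with quercetin (0.25 ± 0.11, edgeR adjusted p = 0.18). Uqcrq, a small complex III subunit, stood at 218.0 to 270.7 CPM in the model and 271.8 to 321.9 CPM with quercetin (0.26 ± 0.13, edgeR adjusted p = 0.243). Of the complex IV subunits with sister genes, Cox7a2 stood at 100.6 to 139.2 CPM with quercetin (0.35 ± 0.16, edgeR adjusted p = 0.2), Cox7a2l at 71.0 to 94.7 CPM (0.32 ± 0.13, 0.169) and Cox7b at 128.3 to 202.2 CPM (0.18 ± 0.16, 0.557). None of these 7 members passed by edgeR on TMM-scaled counts, while limma on the deposited TPM called all 7 as higher.

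On TMM-scaled counts the lean with quercetin rested largely on 1 library. Without quercetin replicate 8 the median of the 88 members was 0.03 in place of 0.16, while without replicate 5 it was 0.22. On the deposited TPM (log2 of TPM plus 0.5) the members' median was 0.33 with all libraries and 0.34 without quercetin replicate 8. The median of all genes rose from 0.16 to 0.27, so the members stood less far above all genes without that library. Without it limma again called 56 members, 50 of them the same, and the share of all genes called in that fit is not given here. Clock genes also separated these groups. Of 18, 13 passed between quercetin and model (7 higher and 6 lower), and Arntl, the core clock activator, stood at 27.2 to 30.9 CPM in the model and 1.33 to 3.56 CPM with quercetin. Of 9 endothelial and 9 macrophage markers 0 passed, and neither did any of 10 hepatocyte, 5 stellate and 4 cholangiocyte markers. Of 4 neutrophil markers 2 were tested, and these 2 passed as higher with quercetin. The summed level of the 4 was 0.756 to 1.90 CPM in the model and 3.26 to 7.05 CPM with quercetin. Of 8 lymphocyte markers 1 passed, as lower. The part of the clock genes and of these markers in the members' values was not tested.

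Myricetin and kaempferol had medians nearer 0 on the same scale. The median log2 fold change of the members against the model was -0.004 with myricetin (41 of 88 above 0) and -0.04 with kaempferol (30 of 88 above 0). With myricetin the smallest p-values by complex included Atp5a1 (-0.23 ± 0.12, edgeR adjusted p = 0.445), Ndufa10 (-0.21 ± 0.10, 0.424), Sdha (-0.21 ± 0.12, 0.539) and Uqcrc1 (-0.19 ± 0.11, 0.52). With kaempferol, Ndufa10, an accessory subunit of the membrane arm, stood at 116.8, 135.8 and 108.0 CPM against 140.5, 130.9 and 150.4 CPM in the model (-0.23 ± 0.10, edgeR adjusted p = 0.365), and the groups overlapped. Cox7a1 differed by 0.75 ± 0.42 with myricetin and 0.72 ± 0.42 with kaempferol (edgeR adjusted p = 0.512 and 0.555). Scaling by total counts turned both medians, to 0.09 with myricetin (74 of 88 above 0) and 0.02 with kaempferol (57 of 88), where the medians of all genes were 0.11 and 0.07. Leaving out 1 library also changed the sign of both. They ran from -0.07 without myricetin replicate 8 to 0.06 without replicate 5, and from -0.16 without kaempferol replicate 5 to 0.06 without replicate 8.

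**Figure D3:**
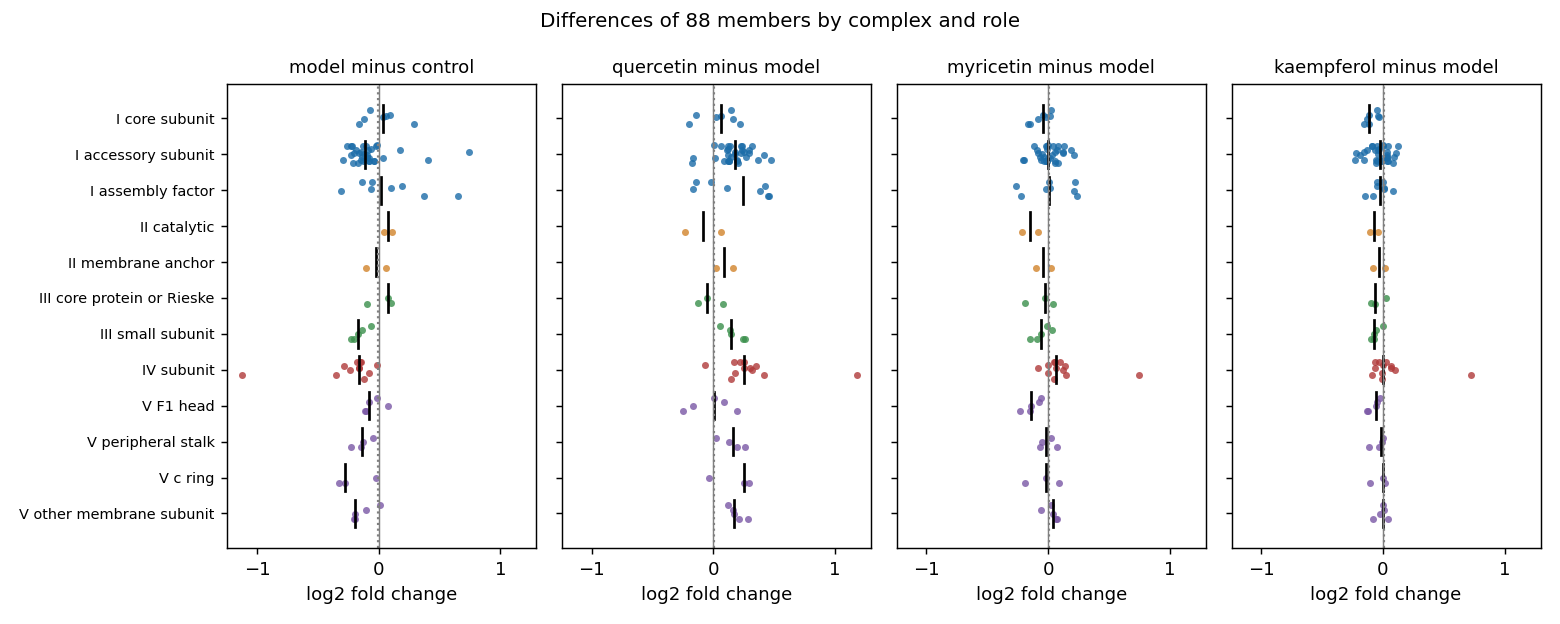
Log2 fold change of the 88 tested members (points) in each comparison, by complex and role, with role medians as black bars, all on TMM-scaled counts. The dotted line is the median of all 12658 genes and the grey line is 0; complex IV lies below 0 between model and control and mostly above 0 between quercetin and model, with Cox7a1 farthest out.

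The members varied together from library to library, also within a group. On the TMM scale, quercetin replicate 8 held the highest CPM of the 15 libraries for 68 of the 88 members, and kaempferol replicate 8 the lowest for 56. The deposited TPM gave another pattern, with the highest value in quercetin replicates 2, 5 and 8 for 43, 20 and 18 members, and the lowest in kaempferol replicate 8 for 24 and in a model library for 34 (7, 10 and 17). The median log2 deviation on the TPM scale was 0.26, 0.19 and 0.19 in quercetin replicates 2, 5 and 8, and -0.10, -0.11 and -0.14 in model replicates 1, 2 and 5. The values that follow are on the TMM scale. Their summed level ran from 10198 CPM in kaempferol replicate 8 to 14680 CPM in quercetin replicate 8. The summed level averaged 12765 ± 1000.2 CPM over control libraries and 12102 ± 495 CPM over model libraries (SD, n = 3 here and for the flavonols). Quercetin libraries averaged 12787 ± 1641 CPM, those of myricetin 11697 ± 1146 CPM and those of kaempferol 11720 ± 1709 CPM. The median log2 deviation of the members from their own mean over all libraries was 0.32 in quercetin replicate 8 and 0.01 and -0.03 in replicates 2 and 5. In kaempferol it was -0.27 in replicate 8, -0.14 in replicate 3 and 0.16 in replicate 5. The SD of this value within groups was 0.16, and the 5 group means ran from -0.08 to 0.10, a narrower range than that of the 3 quercetin or the 3 kaempferol libraries. Each of the 5 complexes had its highest sum of the 15 libraries in quercetin replicate 8, and each but complex II had its lowest in kaempferol replicate 8.

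Ribosomal protein genes deviated in the same direction in these libraries. The median log2 deviation of 68 cytosolic ribosomal protein genes was 0.41 in quercetin replicate 8 and -0.23 in kaempferol replicate 8, and that of 78 mitochondrial ribosomal protein genes was 0.26 and -0.14. On the TMM scale the cytosolic ribosomal protein genes separated model from control (0.11 to 0.23 in the control, -0.21 to -0.14 in the model). The respiratory chain members overlapped on that scale (-0.07 to 0.15 and -0.12 to 0.06). On the deposited TPM they did not overlap, at 0.08, 0.06 and -0.03 in the control and -0.10, -0.11 and -0.14 in the model. With edgeR on TMM-scaled counts 11 of the 68 cytosolic ribosomal protein genes passed as lower in the model, where 4.46% of all genes passed. With quercetin 33 of them passed as higher, where 7.82% of all genes passed. In the same test 0 respiratory chain members passed in either comparison. RNA quality and handling were not tested as a cause.

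**Figure D4:**
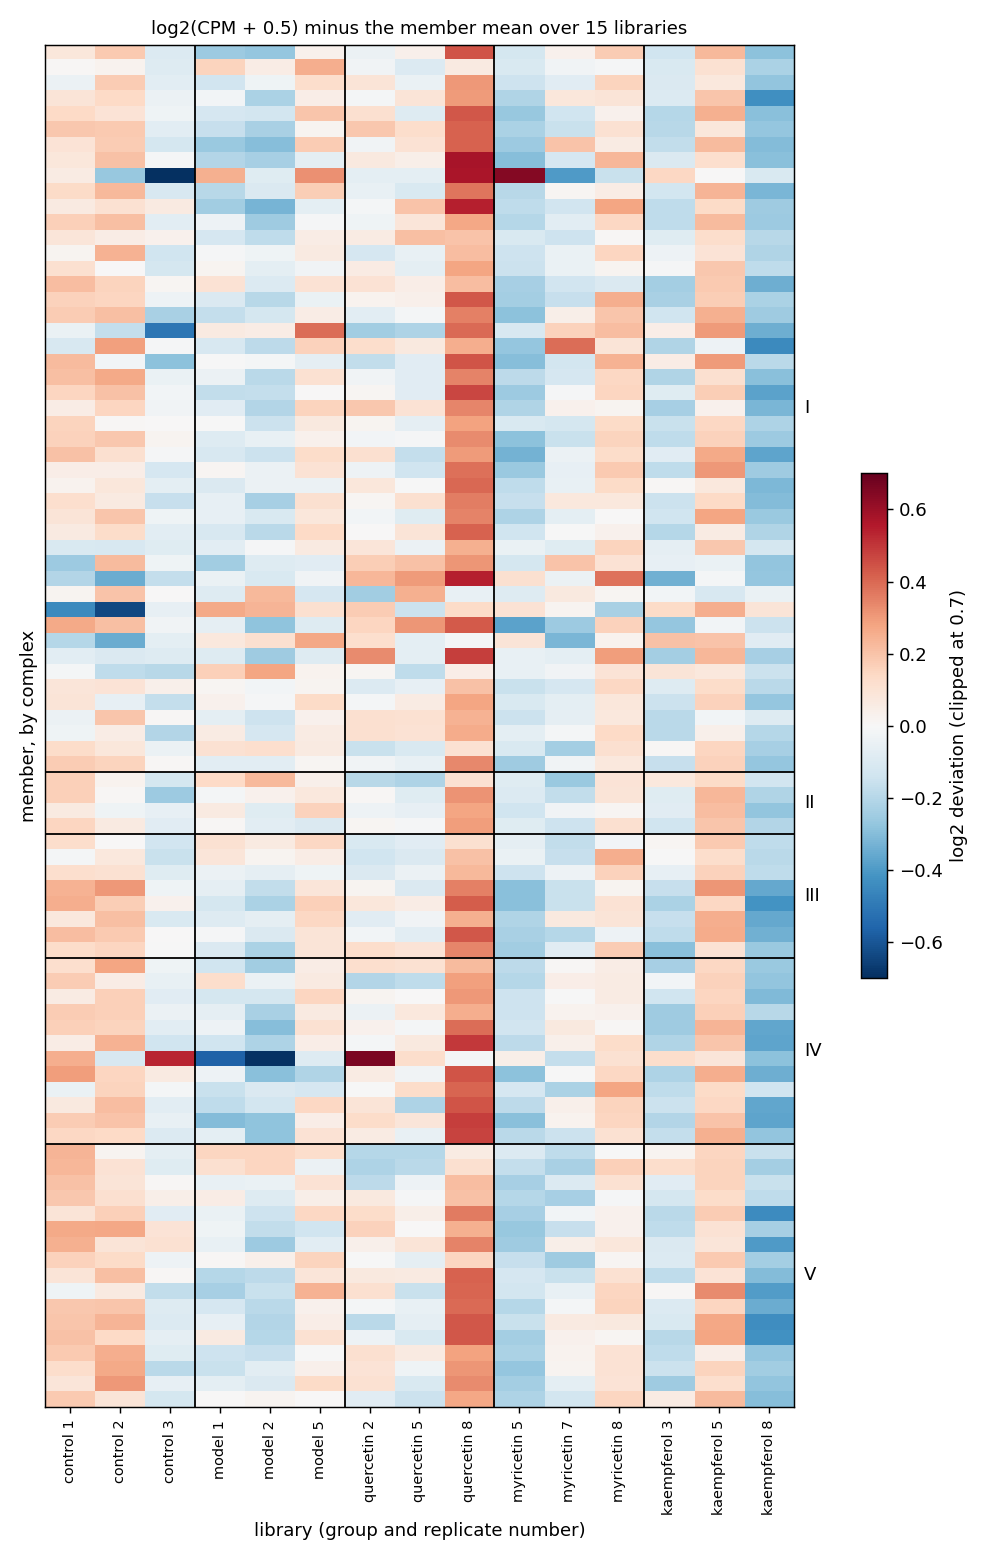
Log2(CPM + 0.5) of each tested member minus its mean over 15 libraries, with 1 row per gene by complex and 1 column per library, clipped at 0.7. Quercetin 8 is red for nearly all members and kaempferol 8 is blue, while libraries of the same group differ among themselves.

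Transcript length went with the size of the differences. Of the 88 members 85 had a GENCODE length, and most are short. Between model and control the 30 members under 600 bases had a median of -0.16, the 32 of 600 to under 1000 bases -0.11 and the 23 of 1000 bases or more -0.04. Between quercetin and model the medians were 0.22, 0.18 and 0.02. All genes tested in the same length classes, members included, had medians of -0.11, -0.04 and 0.00 between model and control, and 0.19, 0.12 and -0.02 with quercetin. Spearman's rho of difference and length was 0.43 and -0.44 over the 85 members and 0.08 and -0.26 over 12385 genes. These are correlations across genes of the same libraries, which are not independent replicates. Length and role overlap, since all 5 small complex III subunits are under 600 bases and both complex II catalytic subunits are longer than 1000, and their parts cannot be told apart here. The lengths are medians over annotated transcripts and can misstate the form expressed in liver, as for Atp5g1 at 2676 bases.

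**Figure D5:**
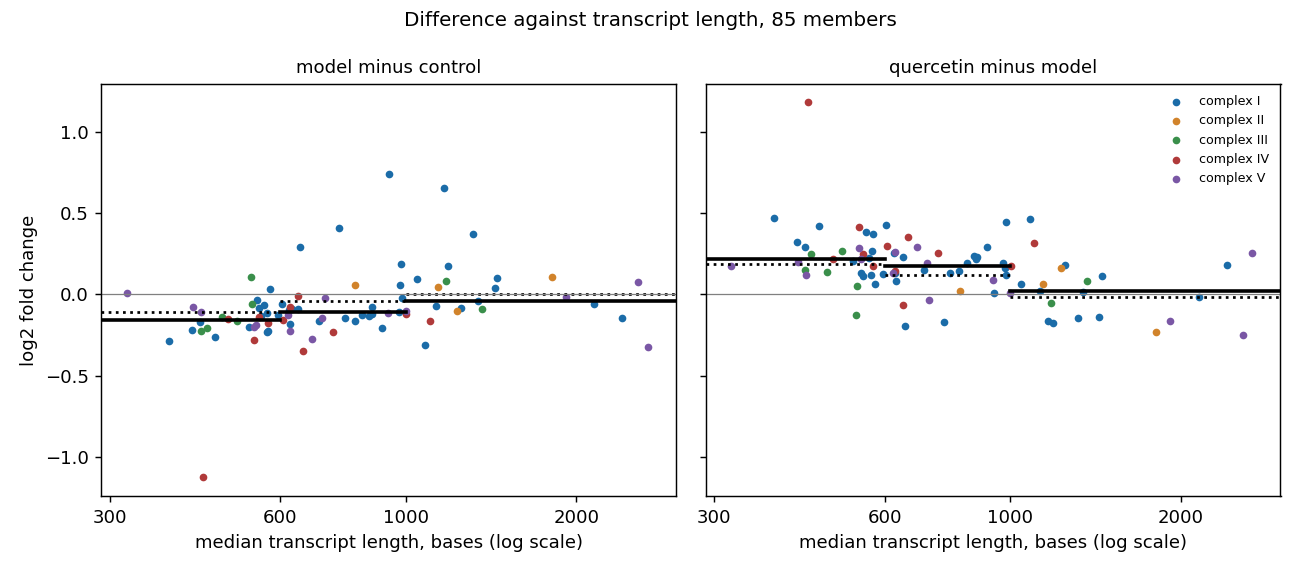
Log2 fold change against median transcript length (log scale) for 85 members, coloured by complex. Solid bars are the members' medians in 3 length classes and dotted bars those of all genes; members under 600 bases have medians of -0.16 (model minus control) and 0.22 (quercetin minus model), beside -0.11 and 0.19 over all tested genes of that length, members included.

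Genes that work with the chain were counted from fixed lists. Of 7 electron carriers and complex III genes outside the rule 0 passed in any comparison, and cytochrome c itself, Cycs, stood at 151.5 to 169.3 CPM in the control, 154.4 to 163.7 CPM in the model and 129.6 to 180.5 CPM with quercetin. Of 13 citric acid cycle genes 0 passed. Of 44 assembly factors outside the rule 3 rose and 1 fell with quercetin against the model, near the share of all genes called (7.82%), and 0 passed in the other 3 comparisons. Cox17, a copper chaperone of complex IV, rose from 19.0, 19.5 and 22.2 to 26.9, 28.3 and 29.5 CPM (0.48 ± 0.13, edgeR adjusted p = 0.0391). Coa7 rose by 0.57 ± 0.13 (edgeR adjusted p = 0.0132) and Cmc1 by 0.56 ± 0.15 (0.0318), both assembly factors of complex IV. Sco2, another copper chaperone of complex IV, changed by -0.87 ± 0.22 (edgeR adjusted p = 0.0237).

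Of 13 ubiquinone genes 1 rose and 1 fell with quercetin. Coq10b, a ubiquinone-binding protein, rose from 14.8, 12.1 and 10.3 to 26.01, 45.2 and 31.3 CPM (1.46 ± 0.27, edgeR adjusted p = 0.00646). Coq8a, needed for ubiquinone synthesis, changed by -0.99 ± 0.21 (edgeR adjusted p = 0.0126). Among 17 regulators of mitochondrial genes and DNA 1 passed between model and control, near the 4.46% of all genes. It was Esrra, a nuclear receptor that drives genes of energy metabolism, which fell from 47.2, 48.1 and 43.5 to 31.97, 33.1 and 32.3 CPM (-0.51 ± 0.14, edgeR adjusted p = 0.043). It stood at 33.6, 47.8 and 32.7 CPM with quercetin and did not pass against the model. Its coactivator Ppargc1a (-0.67 ± 0.29, edgeR adjusted p = 0.186), the NRF1 gene Nrf1 (-0.27 ± 0.12, 0.225) and Tfam, which packages mitochondrial DNA (-0.07 ± 0.10, 0.732), did not pass between model and control. Of the 78 mitochondrial ribosomal protein genes 8 rose with quercetin, near the 7.82% of all genes, and 0 passed in the other 3 comparisons.

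Other count scalings and tools also moved the number of members called. Scaling by total counts, which ignores the composition of a library, called 34 members between quercetin and model, all higher with quercetin. In that comparison 13.7% of all genes were called and the median of all genes moved to 0.15. The members' median under this scaling was 0.30, and all 34 were among the 56 called on the TPM scale. Between model and control it called Atp5g1 as lower (3.37% of genes), over the 5 groups 18 members (19.5%) and over the 4 high-fat groups 17 (8.98%). DESeq2 called Ndufaf3, Ndufaf6 and Atp5g1 over the 5 groups (24% of genes) and Ndufaf3 over the 4 high-fat groups (11.2%), and 0 members between model and control or with myricetin or kaempferol. The TMM factors of quercetin replicates 2 and 5, at 1.104 and 1.11, were the highest of the 15 libraries.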

How the data were processed

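Liver RNA of 15 libraries (5 groups of 3, grouped by the labels) was analysed from the table the authors deposited. Per the submitters' processing notes, the authors used RSEM 1.3.1, HISAT2 2.1.0, DESeq2 1.4.5 and Bowtie2 2.3.4.3. The genome build named there is GRCm38.p6, and which tool did what is not given in the sources used here. Per the file headers, the deposited table holds expected counts and TPM per gene and library, and for 4 comparisons the authors' log2 fold changes and the authors' DESeq2 q values. Rounding was applied to the expected counts, of which 5.37% had a fractional part. How reads shared between genes were divided is not given in the sources used here.

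Library totals were 15853767 to 17576502 counts. Genes with low counts were removed (filterByExpr), which left 12658. The robust quasi-likelihood test of edgeR 4.0.16 (R 4.3.3) was run on TMM-scaled counts, using every library and a mean for each group, which leaves 10 residual degrees of freedom. The common biological coefficient of variation was 0.155. Tests were 2-sided with Benjamini-Hochberg adjustment over all genes, at an adjusted p under 0.05. A standard error is the log2 fold change divided by the root of F, so it and the 95% intervals are approximate. Log2 deviations used CPM plus 0.5. Transcript lengths are medians over GENCODE vM21 protein-coding transcripts, matched by symbol.

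Members and lists were chosen with earlier results of these data known. The text names, by complex, members that passed or else those of smallest p, isoform families and the Sdh genes whatever their values, the highest and lowest TPM, and the 6 smallest p-values of each test over several groups. Ndufs1, Ndufa4l2, Ndufaf8 and the pathway genes that did not pass or that show the clock difference were named after their values were seen. Alternatives were other scalings (RLE, upper quartile, total counts), DESeq2 1.42.0, no filter, fits of the compared groups alone, a replicate block and leaving out each library. Added after seeing the data were limma 3.58.1 (trend, robust) on log2 of the deposited TPM plus 1, with and without quercetin replicate 8, and the library pattern on the TPM scale. TMM assumes that most genes do not differ, and TPM and total counts do not adjust for composition.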

Additional observations from a re-analysis of the deposited data

How the results depend on the processing

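Of 24 alternatives, 15 left out 1 library each. The number of members called was 1 (model minus control), 34 (quercetin minus model), 18 (any difference over 5 groups) and 17 (any difference over the 4 high-fat groups) when libraries were scaled by total counts. On log2 TPM limma called 56 with quercetin, 43 over the 5 groups and 37 over the 4 high-fat groups, and without quercetin replicate 8 it called 56, 36 and 34, and 2 between model and control (Atp5g1 and Cox7a1). DESeq2 called 1 member with quercetin, 3 over the 5 groups and 1 over the 4 high-fat groups. With 1 library left out of the edgeR fit the calls ran from 0 to 2 with quercetin, from 0 to 3 over the 5 groups and from 0 to 1 over the 4 high-fat groups, and stayed at 0 for the other 3 comparisons. Ndufa6 was called with quercetin without quercetin replicate 2 and, together with Ndufaf6, without myricetin replicate 8. Over the 5 groups 3 members were called without myricetin replicate 8 or kaempferol replicate 5 and 0 without control replicate 2 or quercetin replicate 8, and over the 4 high-fat groups 1 was called without myricetin replicate 8 (Ndufaf6) or kaempferol replicate 5 (Ndufaf3). The fit with the replicate block called 0 members over the 5 groups (edgeR adjusted p of Ndufaf3 = 0.214), and moved no other number of calls. Deviations from the group mean correlated between -0.238 and 0.0978 for the 14 pairs of libraries with the same replicate number. For the 76 other pairs they correlated between -0.246 and 0.3. With means of 3 libraries and so few pairs, these ranges cannot show whether the numbers pair the libraries. In the 48 pairs of a named member and a comparison, 56 of 1152 values changed sign, in 12 pairs, and 34 passed the threshold, 10 of them under total counts. No call had the opposite sign. The shares of all genes called with 1 library left out, by edgeR or by limma, are not given here. The Atp5g3 share and its leave-outs were chosen after seeing the data. The cause of these changes was not tested. A depth of 15853767 to 17576502 counts leaves Cox7a1, near 1 CPM, with the widest intervals.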
